A study of Mus musculus with 13 samples.

Results

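Binding of OCT4 and SMAD3 was described at 9 epithelial genes early in the reprogramming of mouse fibroblasts: Cdh1, Epcam, Krt8, Krt18, Krt19, Ocln, Cldn3, Cldn4 and Esrp1. The genes were chosen by name as part of the epithelial program, and each was given a window of its GENCODE span (mm10 assembly) plus 10 kb on each side. They are 9 of 21951 protein-coding genes, and every other protein-coding gene was given a window by the same rule. All peaks and differentially bound sites that shared at least 1 bp with a window were counted for it.

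The cells were mouse embryonic fibroblasts (MEFs) from mid-gestation embryos of both sexes, of the TNG MKOS mouse line on a mixed genetic background that includes CD1. This line carries a GFP reporter that replaces 1 Nanog allele. At 1 Sp3 allele it carries a tetO-driven cassette of c-Myc, Klf4, Oct4 and Sox2 (MKOS) with mOrange, and rtTA under the CAG promoter. All cells, with or without doxycycline (dox), had also been infected with a retrovirus expressing constitutively active Smad3 (Smad3CA), so no group shows SMAD3 binding without it. Chromatin was collected on day 3, with dox at 1 µg/ml (Dox+) or without dox (Dox-). This concentration is that of the labels, whereas the study's methods give a lower one for its reprogramming cultures. OCT4 was immunoprecipitated from Dox+ cells (n = 3), SMAD3 from Dox+ (n = 3) and Dox- cells (n = 3), and input DNA was sequenced from both (n = 2 each). OCT4 without dox was not analysed here, and none of these libraries measures RNA.

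Fibroblasts are mesenchymal cells, and early in reprogramming they are known to take on epithelial features, a change called the mesenchymal-to-epithelial transition. E-cadherin, occludin and the claudins join neighboring cells at adherens and tight junctions, and simple keratins form the filaments of epithelial cells. In fibroblasts such genes are commonly held down by repressors of the SNAIL and ZEB families, which bind E-box elements, and TGF-β signaling through SMAD3 is a known inducer of the reverse transition.

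Peak lists differed in length far more than the groups did. The SMAD3 replicate lists ran from 420 peaks covering 0.123 Mb (Dox+ replicate 1) to 23981 peaks covering 17.2 Mb (Dox+ replicate 2), and the OCT4 replicate lists from 103 to 1191 peaks. The merged lists, called on the pooled replicates, held 2083 OCT4 entries, 12576 SMAD3 Dox+ peaks and 11512 SMAD3 Dox- peaks. A longer list reaches more genes, so each count is set beside the share of all genes with the same call.

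Sequences are shown first for the sites to which the results return. The Ocln window holds the only OCT4 peak near any of the 9 genes, and its 300 bases around the summit (chr13:100507128-100507427, plus strand) are given with the SMAD half-site GTCTG in capitals.
Ocln OCT4 peak: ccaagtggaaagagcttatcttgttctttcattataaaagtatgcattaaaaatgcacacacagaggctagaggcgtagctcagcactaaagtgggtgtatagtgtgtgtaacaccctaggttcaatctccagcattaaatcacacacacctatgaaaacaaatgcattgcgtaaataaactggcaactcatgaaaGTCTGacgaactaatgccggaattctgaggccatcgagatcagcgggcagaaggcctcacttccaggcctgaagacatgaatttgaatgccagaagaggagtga
The site past the end of Krt8 was listed by the authors as higher in SMAD3 with dox. Its central 300 bases (chr15:101995157-101995456, minus strand, as Krt8 is read) hold 2 overlapping GTCTG half-sites, in capitals.
Krt8 SMAD3 site: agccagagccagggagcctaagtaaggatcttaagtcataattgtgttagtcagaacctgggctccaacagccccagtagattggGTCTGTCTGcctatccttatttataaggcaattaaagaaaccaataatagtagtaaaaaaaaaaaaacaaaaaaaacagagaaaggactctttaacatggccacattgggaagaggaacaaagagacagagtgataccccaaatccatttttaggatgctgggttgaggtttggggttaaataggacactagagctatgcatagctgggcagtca
The promoter of Cldn3 lies under the other listed site. The 250 bases before its RefSeq start (chr5:134985964-134986213, plus strand) hold 2 overlapping matches to the KLF element GGGNGTGG, read on the opposite strand and shown in capitals.
Cldn3 promoter: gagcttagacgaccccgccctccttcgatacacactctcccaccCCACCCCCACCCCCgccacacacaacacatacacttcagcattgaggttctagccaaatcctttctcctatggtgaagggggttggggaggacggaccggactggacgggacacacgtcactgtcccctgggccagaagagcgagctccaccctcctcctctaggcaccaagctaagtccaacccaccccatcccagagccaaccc

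Of the 9 genes, only Ocln had a merged OCT4 peak in its window, which is 1 of 9 genes (11.1%) against 4.85% of all protein-coding genes. With 9 genes such a count cannot be told apart from the share of all genes. No peak of the 3 OCT4 replicate lists fell in any of the 9 windows, while 2.95%, 2.87% and 0.337% of all genes had one in replicates 1, 2 and 3. The nearest merged OCT4 peak lay a median of 860 kb from the span of the 9 genes, against 558 kb over the 21755 genes on chromosomes with an OCT4 peak. Apart from Ocln, the closest were 146 kb upstream of Esrp1 and 211 kb downstream of Krt18, the latter at the start of the retinoic acid receptor gene Rarg, 239 kb from Krt8. For Cdh1 the distance was 1518 kb, the largest of the 9.

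SMAD3 was more widespread. In Dox+ cells 5 of the 9 genes (Cdh1, Krt8, Ocln, Cldn3 and Esrp1) had a merged SMAD3 peak in the window, close to the 52.5% of all genes. In Dox- cells 3 genes (Ocln, Cldn4 and Esrp1) had one, against 47.9% of all genes. Only that of Esrp1 was also called in a replicate other than Dox- replicate 2, so the count was 1 without that list. When only the gene span was counted, Cdh1, Krt8 and Cldn3 had a merged Dox+ peak and no gene had a merged Dox- peak, while 43.5% of all genes had a Dox+ peak in the span and 38.7% a Dox- peak. The windows of the 9 genes were shorter than usual, with a median of 27856 bp against 37403 bp, and shorter windows hold fewer peaks.

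Of the 6 merged Dox+ peaks in the windows, 4 overlapped no peak of any Dox- replicate list, as did 29.8% of all 12576 merged Dox+ peaks. These lay within or near Cdh1, Krt8 and Cldn3. The other Dox+ peaks, by Ocln and Esrp1, sat at the start of a neighboring gene and were also called without dox. All 3 merged Dox- peaks overlapped a peak of a Dox+ replicate list, as did 79.4% of all 11512 merged Dox- peaks. With 6 and 3 peaks, neither count is read as a property of these genes.

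**Figure D1:**
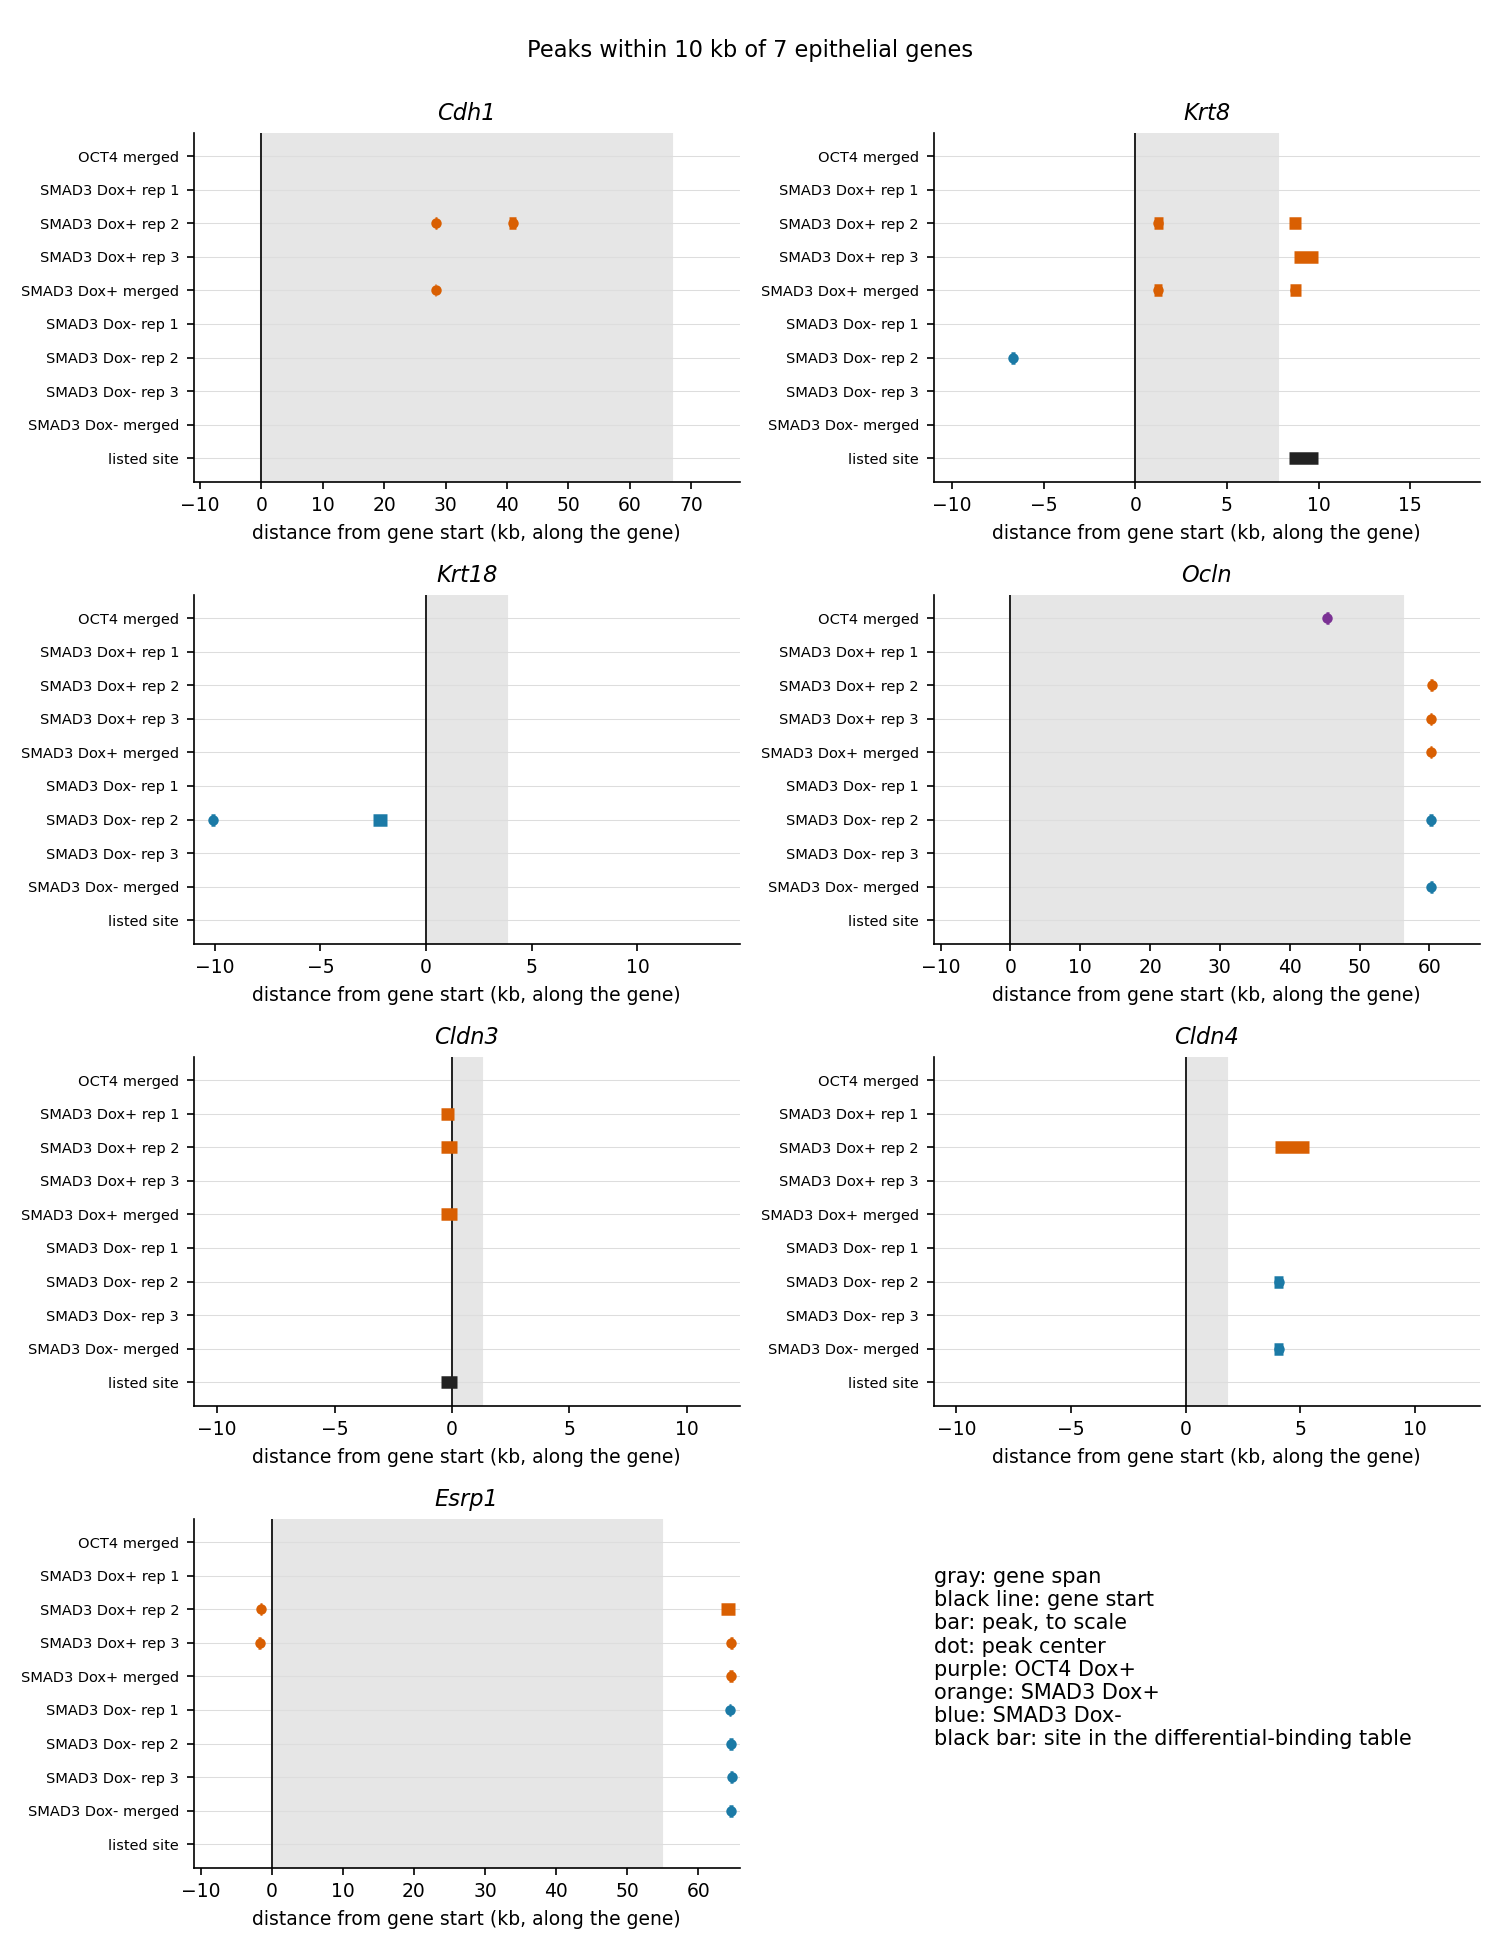
Peaks in the windows of the 7 genes that had any, by distance from the gene start in kb along the gene (x axis) and by peak list (y axis). Gray marks the gene span, bars the peaks to scale and dots the peak centers. Within the spans, peaks were drawn for OCT4 in Ocln, and for SMAD3 in Dox+ cells only, in Cdh1, Krt8 and at the start of Cldn3.

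Cdh1 encodes E-cadherin, the adhesion molecule of adherens junctions (chr8:106603351-106670246, plus strand). In the merged Dox+ list it had a single SMAD3 peak, chr8:106631684-106631858, in an intron 28.4 kb from the gene start. This peak was only 175 bp long but strong, with a fold enrichment over input of 8.75 and a −log10 q-value of 24.1, which placed it 25th by fold and 28th by q-value among the 12576 merged Dox+ peaks. In the replicate lists the same place was called only in Dox+ replicate 2, where its fold enrichment was 2.28 and its −log10 q-value 1.31. Of the peaks of that list, 49.8% had a lower fold. Repeat-masked bases made up 33.1% of the merged peak. A further Dox+ replicate 2 peak of 1200 bp lay 40.9 kb from the start, with a fold enrichment of 2.57. No Dox- list had a peak in the window, and the nearest merged Dox- peak was 12.8 kb past the gene, at the start of Tango6.

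SMAD3 peaks covered 0, 1481 and 0 bp of the Cdh1 window in Dox+ replicates 1, 2 and 3, and 0 bp in each Dox- replicate. Dox+ replicate 2 was therefore the only list with any covered base, and the groups overlapped (difference 494 bp, exact permutation p = 1). Epcam encodes another adhesion molecule of epithelial cells, EpCAM (chr17:87635979-87651129, plus strand). It had no peak in any OCT4 or SMAD3 list.

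Krt8 encodes keratin 8, the partner of keratin 18 in the filaments of simple epithelia (chr15:101996698-102004482, minus strand). Its window held 2 merged SMAD3 Dox+ peaks and no merged Dox- peak. One lay in an intron 1.24 kb from the start (chr15:102003009-102003479, fold enrichment 1.97, −log10 q 0.963), and was called in Dox+ replicate 2 alone, where the fold enrichment was 3.05. The other lay 631 bp past the gene end (chr15:101995421-101996067, fold enrichment 2.17, −log10 q 0.860), and overlapped peaks of Dox+ replicates 2 and 3, with fold enrichments of 2.00 and 3.10. Both merged peaks were weaker than the list's median fold of 2.30. In Dox- cells a single peak was found, 6561 bp upstream of the gene in replicate 2 (fold enrichment 2.39).

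Krt8 was covered over 0, 1230 and 1335 bp in Dox+ replicates 1, 2 and 3 (mean 855 ± 742, SD, n = 3), and over 0, 194 and 0 bp in the Dox- replicates (64.7 ± 112, SD, n = 3). Dox+ replicates 2 and 3 stood above all Dox- lists, but the shortest Dox+ list was at 0 and the groups overlapped (difference 790 bp, exact permutation p = 0.4). The region past the gene end was also among the sites that the authors listed as higher in Dox+.

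Krt18 encodes keratin 18 and lies next to Krt8 on the opposite strand (chr15:102028180-102032027). No merged peak fell in its window. Dox- replicate 2 alone had peaks there, one 1871 bp upstream of the gene (640 bp, fold enrichment 2.54) and one that reached only 2 bp into the window. Covered length was 0 bp in every Dox+ replicate and 0, 642 and 0 bp in Dox- replicates 1, 2 and 3 (difference -214 bp, exact permutation p = 1). Krt19 encodes keratin 19, another simple-epithelial keratin (chr11:100140810-100148665, minus strand), and had no peak in any list. The closest merged SMAD3 peak to Krt19 was a Dox+ peak 19.1 kb past the gene, at the start of Krt13.

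Ocln encodes occludin, a membrane protein of tight junctions (chr13:100496507-100552718, minus strand). The OCT4 peak in its window, chr13:100507144-100507498, lay in an intron 45.4 kb from the gene start. Its fold enrichment of 4.48 was higher than that of 11.6% of merged OCT4 entries, and its −log10 q-value of 3.03 higher than that of 4.46%. It was in none of the 3 OCT4 replicate lists, as were 598 of the 2083 merged entries, and it overlapped no SMAD3 peak of any list. The sequence of this peak, shown above, held 1 GTCTG, an element found in 42.7% of OCT4 windows of this length. It held no match to the octamer ATGCAAAT, which was found in 7.92% of them.

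The pooled coverage showed more at this intron than the peak lists did. Over its central 200 bp the OCT4 signal was 18.2, a coverage in units of the genome mean after subtraction of input, against a mean of 23.2 over all 2083 OCT4 loci. For SMAD3 it was 9.74 with dox and 0.118 without. The Dox+ value exceeded that of 68.7% of OCT4 loci, and the Dox- value lay between its own median of 0.028 and mean of 0.229 over all loci. Among the 1556 OCT4 loci without a merged SMAD3 Dox+ peak, the median Dox+ signal was 5.84, with quartiles of 3.49 and 8.26, so the Ocln intron stood above the upper quartile of these. It stayed below the lower quartile of 10.8 of the 527 loci with such a peak. The Ocln peak is in no OCT4 replicate list, and among the 598 loci of that kind its value lay within the quartiles of 3.83 and 10.1 (median 6.74).

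At this depth, 1 fragment raised the signal by 2.04 for OCT4, 1.67 for SMAD3 Dox+ and 2.2 for SMAD3 Dox-. The values at Ocln thus stood for about 8.92 OCT4 fragments and 5.83 SMAD3 Dox+ fragments over input. They come from pooled libraries, with no value per replicate and no test. Averaged over 1000 bp, SMAD3 reached 3.29 with dox, below the mean of 3.76 over all loci, and -1.12 without.

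**Figure D2:**
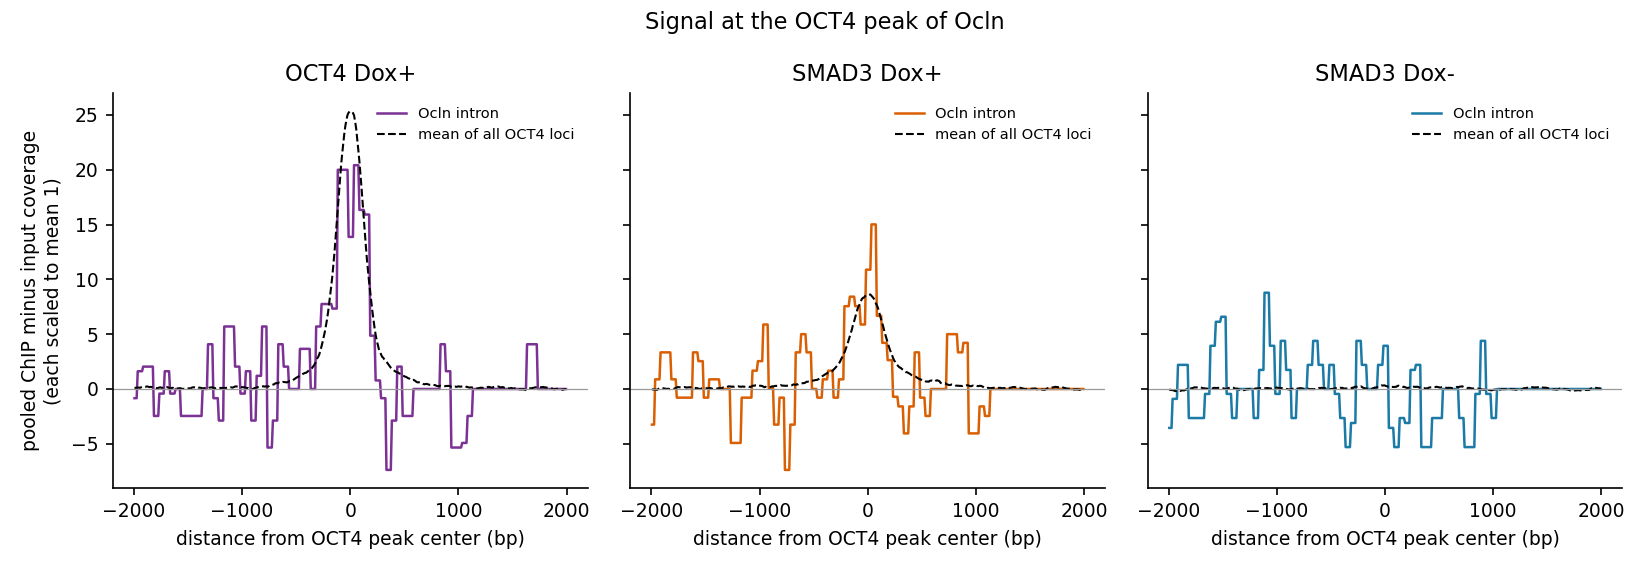
Pooled ChIP coverage minus input, each scaled to a genome mean of 1, by distance in bp from the center of the Ocln OCT4 peak (solid) and as the mean of all 2083 OCT4 loci (dashed), for OCT4 Dox+, SMAD3 Dox+ and SMAD3 Dox-. The central 200 bp averaged 18.2, 9.74 and 0.118 at Ocln, where the trace moves in steps because values stay constant over runs of several 10 bp bins.

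All SMAD3 peaks in the Ocln window lay 3.7 to 3.9 kb past its end, at the start of Gtf2h2, which encodes a subunit of a general transcription factor. There the merged fold enrichment was 4.32 in Dox+ and 2.14 in Dox-. In the replicate lists it was 4.57 and 2.22 in Dox+ replicates 2 and 3, and 8.68 in Dox- replicate 2, with no peak in the other lists. Covered length was 0, 369 and 307 bp in Dox+ replicates 1, 2 and 3, and 0, 647 and 0 bp in Dox- replicates. The groups overlapped, with a difference of 9.67 bp (exact permutation p = 1).

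Cldn3 encodes claudin 3, a sealing protein of tight junctions (chr5:134986214-134987472, plus strand). It was the only one of the 9 genes with SMAD3 peaks over its own start. The merged Dox+ peak, chr5:134985763-134986420, had a fold enrichment of 2.34 and a −log10 q-value of 1.46. Peaks at the same place were called in Dox+ replicate 1 (fold enrichment 2.23) and replicate 2 (2.02), but not in replicate 3 or in any Dox- list. Replicate 1 held only 420 peaks, and just 2.57% of all genes had one of them in the window.

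SMAD3 peaks covered 535, 679 and 0 bp of the Cldn3 window in Dox+ replicates 1, 2 and 3 (mean 405 ± 358, SD, n = 3), and 0 bp in every Dox- replicate. The groups met at 0 through Dox+ replicate 3, although that list held 10374 peaks (difference 405 bp, exact permutation p = 0.4). Cldn4 encodes claudin 4 and lies 38.8 kb from the Cldn3 site (chr5:134945119-134946934, minus strand). Its own window had a merged Dox- peak, chr5:134942679-134943084, 2035 bp past the gene end, with a fold enrichment of 2.19 and 62.1% of its bases repeat-masked. A Dox+ replicate 2 peak of 1491 bp overlapped it (fold enrichment 2.66), but no merged Dox+ peak did. Covered length at Cldn4 was 0, 1491 and 0 bp in Dox+ and 0, 406 and 0 bp in Dox- (exact permutation p = 1), so in both groups only replicate 2 had a peak.

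Esrp1 encodes an RNA-binding protein that directs epithelial splicing (chr4:11331933-11386783, minus strand). Its merged SMAD3 peaks, with fold enrichments of 1.89 in Dox+ and 1.96 in Dox-, lay 9.5 kb past the gene end at the start of Dpy19l4. All replicate lists but Dox+ replicate 1 had a peak there. Nearer to Esrp1, Dox+ replicates 2 and 3 each had a peak 1419 and 1530 bp upstream of the start, with fold enrichments of 1.55 and 1.94, and no Dox- list had one. Neither was in the merged list. Covered length was 0, 1887 and 839 bp in Dox+ (mean 909 ± 945, SD, n = 3) and 239, 509 and 384 bp in Dox- (377 ± 135, SD, n = 3). The Dox+ values lay on both sides of the Dox- values (difference 531 bp, exact permutation p = 0.5).

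For none of the 9 genes did the covered lengths of the 3 Dox+ lists and the 3 Dox- lists stand apart without overlap. Over all protein-coding genes this was also rare: 0.0957% were higher in every Dox+ list and 0.0182% in every Dox- list. These 25 genes reached the smallest p that 3 against 3 lists can give, 0.1, so the exact permutation test could not pass 0.05 for any gene, with or without adjustment. Nothing in the labels says that the replicates were separate cultures, so this spread may be technical. When Dox+ replicate 1 was left out, Krt8 and Esrp1 no longer overlapped, and without Dox+ replicate 3 Cldn3 did not. Leaving out these lists gave a Dox+ length above every Dox- list at 16.3% and 0.123% of all genes.

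**Figure D3:**
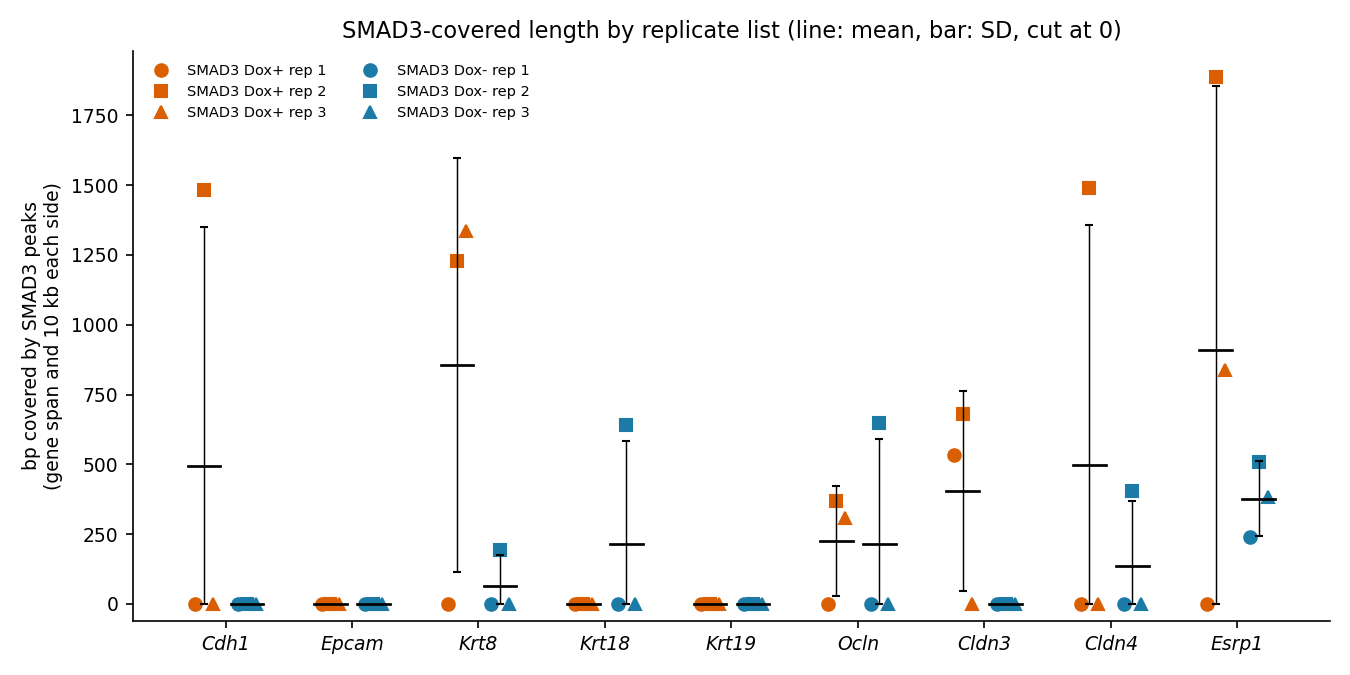
Length covered by SMAD3 peaks in bp (y axis) in the window of each gene (x axis) in each replicate list; orange marks Dox+, blue Dox-, the marker shape the replicate, black lines the group mean and thin bars the SD, cut at 0. The groups overlap for every gene, and at Krt8, Cldn3 and Esrp1 a pair of Dox+ lists lies above all Dox- lists.

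Sites of differential SMAD3 binding were taken from the authors' table, which holds 2080 sites and the mean log2 concentration (normalized read count) of each group. Of the 9 genes, Krt8 and Cldn3 had a site listed as higher in Dox+ (22.2%, against 6.64% of all genes). None had a site listed as lower, against 3.84% of all genes. The regions open to this test were rebuilt as those in at least 2 of the 6 SMAD3 replicate lists. There were 6 of them in the 9 windows, at Krt8, Ocln, Cldn3, Cldn4 and (2) Esrp1, and 2 were listed. Of all 13217 rebuilt regions, 8.9% were listed as higher and 6.84% as lower. With 9 genes and 6 regions, neither count of 2 is read as a property of these genes.

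The Cldn3 site, chr5:134985762-134986441, covered the gene start and had a mean of 4.31 in Dox+ and 0.44 in Dox- (log2). The Krt8 site, chr15:101994494-101996121, lay 577 bp past the gene end, with 3.93 in Dox+ and 0.44 in Dox-. The value of 0.44 was the lowest Dox- mean in the table and was shared by 276 of the 1176 sites listed as higher, so no fold was computed against it. Among these 276 sites, 94.2% had a lower Dox+ mean than the Cldn3 site and 81.9% a lower one than the Krt8 site. Both sites overlapped peaks of 2 Dox+ replicate lists and of no Dox- list, so they entered the rebuilt regions through Dox+ alone. A low Dox- mean and a higher direction are thus partly built in, and these ranks are no separate support. In the Dox+ group alone the Krt8 and Cldn3 sites were ordinary, above 55.4% and 72.3% of sites listed as higher. Widening the windows to 50 kb brought in no further listed site: it only let the windows of Krt18 and Cldn4 reach those of Krt8 and Cldn3. None of the 2007 sites in the authors' table of OCT4 against SMAD3 fell in the windows.

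**Figure D4:**
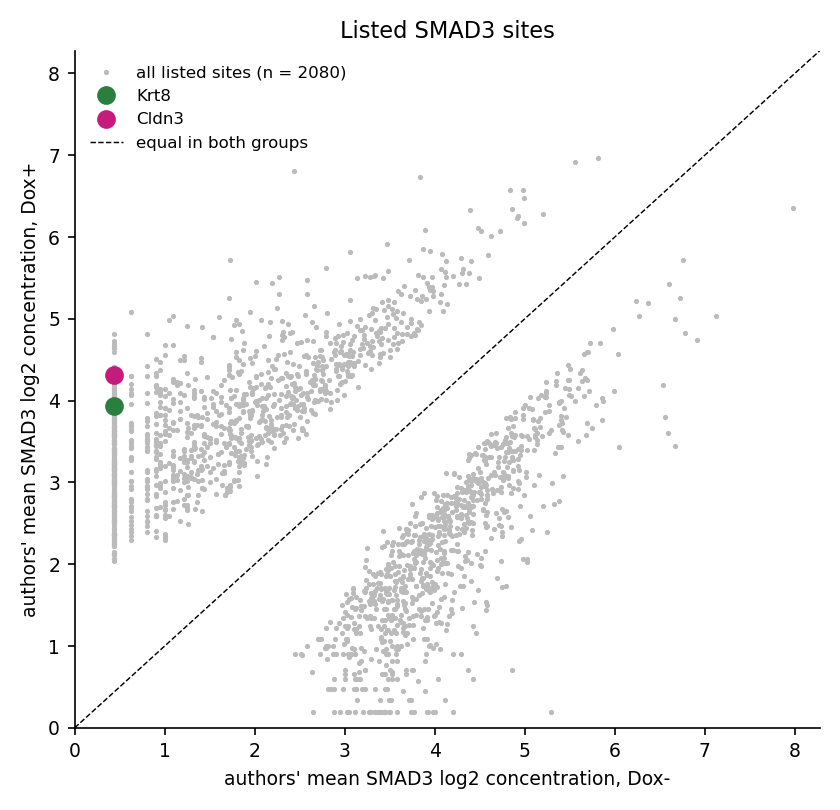
The authors' mean SMAD3 log2 concentration in Dox- (x axis) and Dox+ cells (y axis) for the 2080 listed sites (gray), with the sites at Krt8 (green) and Cldn3 (magenta) marked and the line of equal values dashed. Both lie at the lowest Dox- mean of 0.44, with Dox+ means of 3.93 and 4.31.

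A wider list of 52 epithelial genes and a list of 12 mesenchymal genes were set beside the 9. In the wider epithelial list 28 genes (53.8%) had a merged SMAD3 Dox+ peak and 19 (36.5%) a Dox- peak, much as in the 9 genes. The shares of all genes were 52.5% and 47.9%. OCT4 peaks were found at 2 of the 52 genes (3.85%, against 4.85% of all genes). These were Ehf, an epithelial transcription factor of the ETS family (fold enrichment 4.39), and Dsp, which encodes desmoplakin of desmosomes (4.04). The window of Ehf held a peak in 0 of the 3 OCT4 replicate lists and that of Dsp in 1. The window of Pkp3, which had no merged OCT4 peak, also held a peak in 1 of these lists. In the single OCT4 lists, 0%, 3.85% and 0% of the 52 genes had a peak in replicates 1, 2 and 3, against 2.95%, 2.87% and 0.337% of all genes. Sites listed as higher in Dox+ were found at 8 (15.4%, against 6.64% of all genes) and sites listed as lower at 1 (1.92%, against 3.84%).

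The 8 genes with a higher site encode proteins of tight junctions, desmosomes, cell-matrix attachment and the cell surface. F11r, encoding the tight junction adhesion molecule JAM-A, had means of 4.18 in Dox+ and 0.44 in Dox-. The desmosomal plakophilins followed, with 3.28 and 0.44 at Pkp1 and 3.39 and 1.80 at Pkp3, and Perp, another desmosomal gene, had 3.56 and 1.25. The laminin-binding integrins had 4.54 and 2.01 (Itga6) and 4.10 and 0.63 (Itgb4). Itgb4 had 2 listed sites, and the means of a single site are given. The surface protease gene St14 had 2.61 and 0.44, and the protease inhibitor gene Spint2 had 4.01 and 2.46. The lower site was at Cdh3, encoding P-cadherin, with 1.08 in Dox+ and 3.88 in Dox-.

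In the mesenchymal list, SMAD3 peaks were found at 11 of 12 genes in Dox+ and at 12 of 12 in Dox-. Of all genes, 52.5% and 47.9% had such a peak. OCT4 peaks were found at 3 genes (25%, against 4.85% of all genes). These were Fn1, encoding fibronectin (fold enrichment 6.06), Zeb1, encoding a repressor (5.64), and Tcf4, encoding a basic helix-loop-helix factor (3.69). Of these only Tcf4 had an OCT4 peak in any replicate list, in 2 of 3, while Fn1 and Zeb1 had one in 0. In the single OCT4 lists, 8.33%, 8.33% and 0% of the mesenchymal genes had a peak in replicates 1, 2 and 3, against 2.95%, 2.87% and 0.337% of all genes. Sites listed as lower in Dox+ were found at 4 genes (33.3%, against 3.84% of all genes). These were Snai1, encoding SNAIL (2.69 in Dox+ and 4.10 in Dox-), Twist2 (1.60 and 3.75), Fn1 (3.64 and 5.29) and Tcf4. Twist2 had 2 listed sites, with the means of a single site given, and the lower Tcf4 site is given without means. Tcf4 also had the only site of this list that was higher in Dox+ (3.25 and 0.44). The difference between the lists was not tested, since they were chosen with earlier results of these data known. Window lengths of the wider epithelial and mesenchymal lists were not compared, and longer windows hold more peaks.

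**Figure D5:**
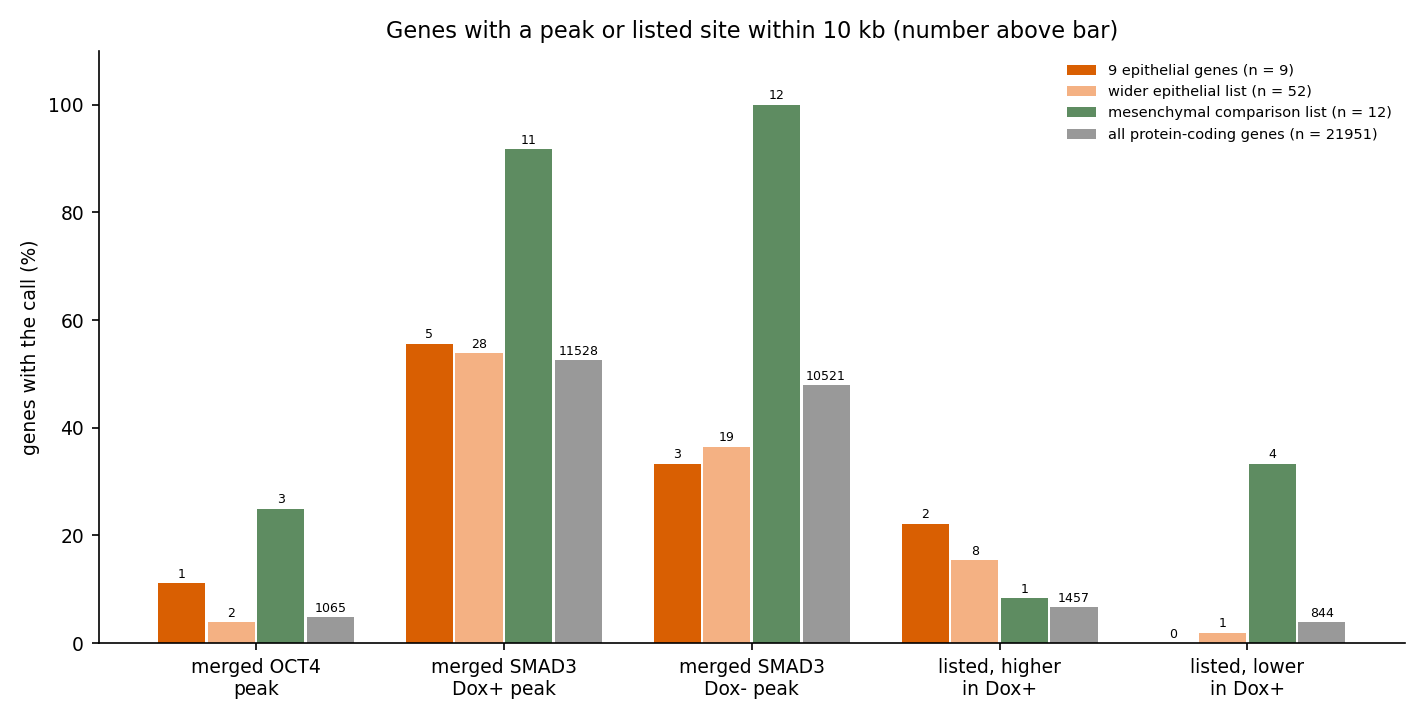
Percentage of genes (y axis) with each of 5 calls in the window (x axis) for the 9 epithelial genes, the wider epithelial list, the mesenchymal list and all protein-coding genes, with the number of genes above each bar. Sites listed as lower in Dox+ were found at 0 of 9, 1 of 52 and 4 of 12 genes, and at 3.84% of all protein-coding genes.

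By the pattern of these 5 calls, Krt8 and Cldn3 were joined by 6 wider epithelial genes (F11r, Pkp1, Pkp3, Perp, Spint2 and Itga6), a pattern held by 1.81% of all genes. Cdh1, with a Dox+ peak only, shared its pattern with the epithelial transcription factor genes Grhl1, Grhl2, Grhl3 and Ovol2 and with Prss8, and with 6.36% of all genes. Epcam, Krt18 and Krt19 had none of the calls, as had 20 of the wider list and 41.8% of all genes. Cldn4, with a Dox- peak only, matched Pard6b and Ap1m2 and 3.36% of all genes. Ocln matched Dsp and 1.97% of all genes. The pattern of Esrp1, a SMAD3 peak with and without dox, was also that of 14 wider epithelial and 7 mesenchymal genes and of 34.5% of all genes.

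Promoter sequence was compared last. RefSeq promoters (GRCm38.p6, 250 bases before to 50 after the start) were matched for Epcam, Krt8, Krt18, Ocln, Cldn3 and Cldn4, with 2 overlapping ones for Ocln. None was matched for Cdh1, Krt19 and Esrp1, so the promoters of these genes were not searched. The E-box CACCTG, on either strand, was in 7 of these 7 promoters, and in 20.2% of all 32851 promoters. The genes and the motif were chosen with earlier results of these data known, so this count was not tested. The 2 Ocln promoters share an E-box. In the 6 genes E-boxes occurred at 9 distinct places. Those of Epcam, Krt18, Ocln, Cldn3 and Cldn4 are shown here with 12 bases on each side, on the strand of the gene and with the E-box in capitals. Numbers give the first base of the element relative to the RefSeq start at 0.
Epcam at -187: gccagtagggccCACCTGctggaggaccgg
Epcam at -19: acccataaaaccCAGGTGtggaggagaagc
Krt18 at -214: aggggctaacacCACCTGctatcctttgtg
Ocln at -68: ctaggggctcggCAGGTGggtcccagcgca
Ocln at 7: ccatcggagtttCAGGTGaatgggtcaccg
Cldn3 at 31: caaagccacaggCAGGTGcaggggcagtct
Cldn4 at -14: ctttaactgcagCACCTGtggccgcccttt
Cldn4 at 11: cctttcttgttgCAGGTGcaggcaggaaag
The 2 Ocln elements are counted from different RefSeq starts of the gene. The Cldn3 element lies within the SMAD3 site over that start, and no other of these promoters was under a peak of any list.

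The other elements were less uniform. GGGNGTGG was found in 4 of the 7 promoters, those of Epcam, Krt18, Cldn3 and one of Ocln, against 17.6% of all promoters. GTCTG was also in 4, those of Epcam, Krt8, Krt18 and Cldn4, against 49.6% of all. GGCGCC, a GC-rich SMAD element, was found in 1 (Krt18) and the AP-1 element TGANTCA in 1 (Cldn4), against 11.9% and 7.81% of all promoters. The octamer was in none, against 1.74% of all. The OCT-SOX composite was also in none. As searched it matched 0 of all 32851 promoters and 1 of the 2083 OCT4 windows, so its absence says nothing about these genes. At the listed sites, GTCTG was in the center of 51.3% of all 2080, so its presence at Krt8 was common, and GGGNGTGG in 18.4%. These matches describe the letters in the windows and no binding.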

How the data were processed

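ChIP-seq libraries of OCT4 and SMAD3 with inputs (13 samples) were grouped by antibody and dox as labelled. The authors trimmed reads (Trimmomatic 0.36), aligned them to mm10 with Bowtie 2, removed duplicates (Picard 2.3.0), reads with a mapping quality under 40 and blacklisted reads, and called peaks per replicate and on merged replicates against merged inputs with MACS2 2.1.0 (OCT4 narrow, q 0.01; SMAD3 broad, cutoff 0.1). The deposited peak lists give each peak its fold enrichment over input (a ratio, not logged) and the −log10 of its q-value, which for broad peaks is an average over the region and can be below the cutoff. The signal the authors deposited at merged OCT4 peaks is a signed score, pooled coverage minus input, each scaled to a genome mean of 1, in 10 bp bins. Its values at Ocln stay constant over runs of several bins, so its resolution there is coarser than 10 bp. The authors' DiffBind tables list sites with an FDR up to 0.1 and give log2 group means, fold, p-value and FDR; position, direction and means were used, and fold, p-value and FDR were not. The gapped-peak files were not used.

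Peaks were converted to 1-based positions, and all lay within the chromosomes of GRCm38, the reference used. Covered length per gene was the number of window bases under any peak of a list, compared with exact two-sided permutation tests (3 against 3) over all protein-coding genes with Benjamini-Hochberg adjustment. Pooled depth was read from the step of the signal taken as 1 fragment (2.04 for OCT4, 1.67 for SMAD3 Dox+ and 2.2 for SMAD3 Dox-). It was 0.490 (OCT4), 0.599 (SMAD3 Dox+) and 0.455 (SMAD3 Dox-) times the genome. Smaller values also occur in the signal after input is subtracted, and depth per replicate is unknown here. Fragment numbers therefore cover no replicate error. Motifs (7, both strands, no mismatch) were searched in 300-base windows. The steps for overlap, coverage and permutation were tested on simulated data. Python 3.11.15, numpy 2.4.6, pandas 2.3.3 and pysam 0.24.0 were used.

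The 9 genes, the wider epithelial and mesenchymal lists and the motifs were chosen with earlier results of these data known. All 9 genes were named; of the other lists, genes with a merged OCT4 peak (up to 12 by fold) or a listed site (up to 12 by difference of means), and genes with the same 5 calls as one of the 9. Alternatives were other windows, stricter peaks, replicate support, 50% overlap, list scaling, the replicate block and leaving out each replicate. Some items are not reported here.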

Additional observations from a re-analysis of the deposited data

How the results depend on the processing

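Of 48 alternative counts and signals 20 moved. Of 70 alternative differences in covered length, 52 kept their direction (11 of them changed by over 1.5 times), 11 became 0 and 7 turned. Those that kept it include the replicate block of each gene, where the difference is the same by construction and could not change. The single gene with an OCT4 peak became 0 for peaks in at least 2 replicate lists, for −log10 q of at least 5, and for support by the lists left after leaving out each OCT4 replicate (0 to 0). The 5 genes with a merged SMAD3 Dox+ peak became 3 with the span alone, 9 with 50 kb and 2 at −log10 q of at least 2. The 3 with a Dox- peak became 0, 6 and 0, and 1 for peaks in at least 2 lists. Leaving out replicates gave 4 to 5 (Dox+) and 1 to 3 (Dox-), the 1 without Dox- replicate 2. An alternative chosen after seeing the data, without peaks centered within 1 kb of another gene's start, gave 3 and 1. The 2 genes with a site listed as higher became 1 (span) and 4 (50 kb). The SMAD3 signal difference at Ocln fell from 9.62 to 4.41 over 1000 bp; it has no value for OCT4 peaks in a replicate list, since the Ocln peak is in none. Genes without overlap of covered length numbered 0 with all lists and 0 to 2 when single lists were left out. With the 420 strongest peaks of each list, Cdh1, Krt8, Krt18, Cldn4 and Esrp1 became 0 and Cldn3 178 bp. In the gene span alone, Krt18, Ocln, Cldn4 and Esrp1 became 0, Krt8 176 bp and Cldn3 104 bp. Without Dox+ replicate 2 Cdh1 became 0 and Esrp1 42.2 bp, and Krt18 became 0 without Dox- replicate 2. The Ocln difference was -216 bp with the 420 strongest peaks of each list, and -98.2 to 225 bp without single lists, Cldn4 gave -135 to 610 bp, and Esrp1 -103 bp per Mb covered; the causes were not tested.

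With a replicate block (same-numbered lists paired, exact sign-flip permutation test, smallest p 0.25), the differences are the same by construction, 790 bp at Krt8 (p = 0.5) and 405 bp at Cldn3 (p = 0.5), and no call changed. The deviations in covered length of same-numbered lists correlated at 0.379, 0.173 and -0.0459. Those of Dox+ replicate 3 correlated best with those of Dox- replicate 2 (0.262), so the numbers were not taken as pairs.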
